A study of Gallus gallus with 18 samples.

Results

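Transcription factors of the homeobox, SOX, FOX, GATA and T-box families were described in the ovary, adipose tissue and liver of laying broiler breeder hens. The genes were chosen by symbol: each symbol in the gene lists given for feeding and for tissue that begins with the letters of these families was taken, and 1 FOX gene was left out. This gave 43 members among 17108 genes in the count table, of which 5824 have a symbol in those lists. They are 10 HOX genes, 9 FOX genes, 6 SOX genes, 4 TBX genes, 3 GATA genes, 2 genes each of the EMX, IRX, LHX, PAX and SIX-type homeobox genes, and MEIS2. The RNA came from 6 Arbor Acres hens at 30 weeks of age, which gave 18 libraries, 1 of each tissue from each hen. In the ad libitum group, 3 hens had free access to feed from 22 weeks of age. In the restricted feeding group, the other 3 hens stayed on the allowance of the breeder guide, on which the birds of both groups had been reared. Libraries carry their label names, in which M is ovary, F is adipose tissue and G is liver and the same number is the same hen: M1721, M1723 and M1725 (likewise F and G) are ad libitum, and M1724, M6709 and M6710 are restricted. The ovary samples were stroma with small follicles and the adipose tissue was abdominal fat.

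These families are developmental regulators that bind DNA through a conserved domain, after which each family is named or grouped. HOX genes lie in clusters and mark position along the body axis, with low paralog numbers toward the head and high numbers toward the tail, and adult tissues of mesodermal origin keep part of this code. TALE proteins such as MEIS2 bind DNA together with HOX proteins, proteins of the SIX-EYA network act through EYA cofactors, and LIM homeodomain proteins (LHX) act with LDB adaptors. SOX and FOX proteins, GATA zinc finger proteins and T-box proteins each mark cell lineages, among them gonadal somatic cells, endothelium, neural crest and hepatocytes. Fat, liver and ovarian stroma therefore hold different sets of these factors in adult animals.

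Total counts were between 14793554 and 23261748 per library, so that 3 counts corresponded to 0.0863 to 0.346 normalised CPM. Normalised CPM is the count divided by the library total, on the CPM scale, after TMM scaling over all 18 libraries. TMM scaling corrects for genes that take up much of a library, and its factors were 0.434 to 0.515 in liver, where 5 genes took 30.3% to 43.6% of the counts, 1.13 to 1.33 in adipose tissue and 1.56 to 1.72 in ovary. Marker genes of each labelled tissue were highest in that tissue: the sum of 9 granulosa and theca markers was 790 to 1885 normalised CPM in ovary, that of 5 adipocyte markers was 9943 to 24588 in adipose tissue, and that of 6 hepatocyte markers was 446541 to 737921 in liver. Libraries that stood apart were ovary M1723, in which 5 chromaffin and neuroendocrine markers summed to 3566 against 71.4 to 241 in the other ovaries, and ovary M1724, with 2001 normalised CPM of the muscle gene DES against 129 to 445. In liver, G1724 had an endothelial sum of 326 against 604 to 937. Gene lengths were not used here, so levels are compared between libraries and not between genes. In these bulk samples, fewer cells of a type and less RNA per cell cannot be told apart.

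Most of the members tested between tissues were lower in liver than in ovary and than in adipose tissue. Of the 40 members that could be tested between tissues, 14 were called highest in ovary, 15 in adipose tissue and 2 in liver, and 9 were called highest in none. The call required a Benjamini-Hochberg FDR under 0.1 in edgeR's quasi-likelihood test against both other tissues, and over all 13426 genes tested it held for 24.5% in ovary, 20.4% in adipose tissue and 24.5% in liver. Of the 17 members that stood in a tissue list of the study, the choice already used their high level in a tissue. The adipose list held 9 of them, the ovary list 8 and the liver list 0, so the low liver levels follow in part from the choice. The other 26 members entered through the study's feeding lists, most of them through that of adipose tissue. Over all members these lists held 24 for adipose tissue, 8 for liver and 7 for ovary. The counts among these 26 can therefore also follow in part from the choice. Of the 26, 23 were tested, and 8 were called highest in ovary, 8 in adipose tissue and 2 in liver. Of these, FOXE3 and LHX4 passed the filter only through ovary. HOXA10, HOXC10, TBX22 and TBX5 passed it only through adipose tissue, where they were called. The pairwise counts that follow include all of these members. In the pairwise tests 31 of 40 members were higher and 3 lower in ovary than in liver, with a median log2 difference of 2.81, and the median over all genes was 0.16. Likewise 31 were higher and 5 lower in adipose tissue than in liver, with a median of 2.89 against 0.16 over all genes. Between ovary and adipose tissue the members were evenly split, 15 higher and 15 lower in ovary. In all 6 livers 20 members stayed under 1 normalised CPM and 9 of these had no count at all. The scale between tissues rests on the normalisation: with library size alone the median of all genes moved by 1.85 on the log2 scale for ovary minus liver, by 1.35 for adipose minus liver and by 0.49 for ovary minus adipose.

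**Figure D1:**
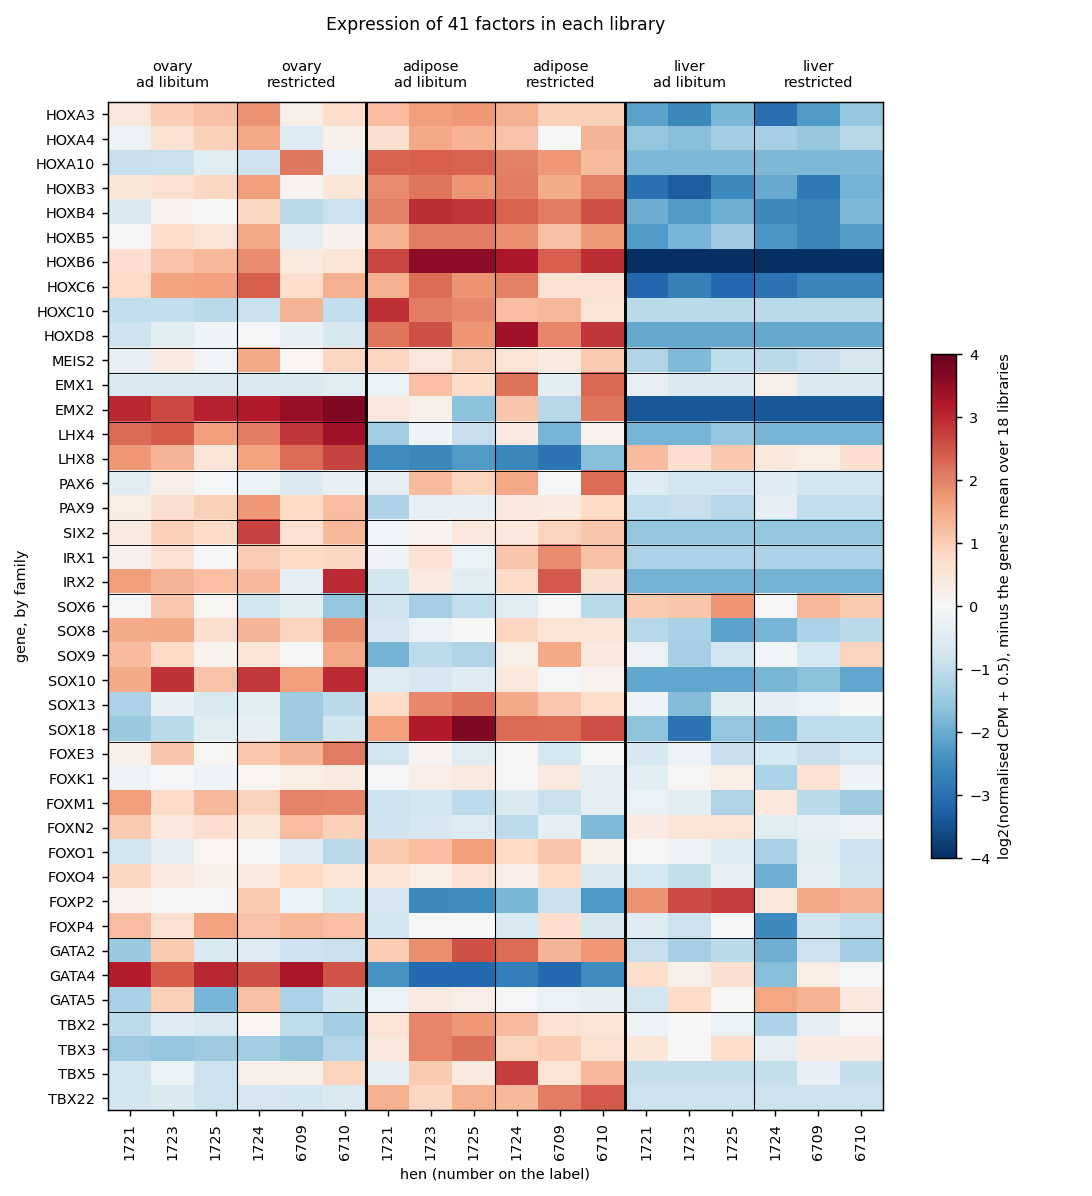
Heat map of 41 of the factors (rows, by family) in the 18 libraries (columns, by tissue and feeding group, labelled by hen), coloured by log2(normalised CPM + 0.5) minus the mean of the gene over all libraries, with colours ending at 4 in either direction. EMX2, SOX10 and GATA4 are high in all 6 ovaries, HOXB6 and SOX18 are high in all 6 adipose libraries, and most rows are lowest in liver.

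All 10 HOX genes had reads in adipose tissue and in ovary. All 10 were tested between tissues, 7 were called highest in adipose tissue (HOXA10, HOXB3, HOXB4, HOXB5, HOXB6, HOXC10 and HOXD8) and none was called highest in ovary or liver. This count follows in part from the choice: 6 of the 10 came from the study's list of genes high in adipose tissue, among them 4 of the 7 called (HOXB3 to HOXB6), and HOXA10 and HOXC10 passed the filter only through adipose tissue. HOXB4, a middle member of its cluster, had 4.26 to 17.1 normalised CPM in ovary (median 7.81), 39.8 to 76.4 in adipose tissue (median 54.6) and 1.08 to 2.40 in liver (median 1.80). Every adipose library was above every ovary and every ovary above every liver, with a log2 difference of -2.74 ± 0.33 (SE, FDR 2.69e-06) for ovary minus adipose and 4.996 ± 0.38 (FDR 7.79e-09) for adipose minus liver in edgeR. HOXB6 had 10.5 to 30.4 normalised CPM in ovary (median 15.4) and 43.7 to 99.2 in adipose tissue (median 71.7), with no count in any liver. Against the floor of 3 counts over the 6 livers, HOXB6 was at least 1503-fold higher in adipose tissue and at least 355-fold higher in ovary. Their neighbours HOXB3 and HOXB5 had the same order, with medians of 20.4 and 13.4 normalised CPM in ovary, 54.4 and 36.7 in adipose tissue and 1.74 and 1.77 in liver.

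HOXD8, the only HOXD gene among the members, had 0.65 to 1.46 normalised CPM in ovary (median 1.09) and 6.43 to 20.4 in adipose tissue (median 10.04), and no count in liver. The ranges of ovary and adipose tissue did not overlap, and ovary minus adipose was -3.43 ± 0.34 on the log2 scale (SE, edgeR FDR 2.45e-06). HOXC10, a posterior HOX gene, was at 0 to 0.0693 normalised CPM in 5 ovaries and at 2.22 in M6709, against 1.01 to 7.42 in adipose tissue (median 2.81). Ovary minus adipose was -4.40 ± 0.90 (edgeR FDR 0.000906), and adipose tissue was at least 73.9-fold above the liver floor. HOXA10, of the same paralog group, showed the same exception: it had 0.413 to 0.972 normalised CPM in 5 ovaries and 7.06 in M6709, and 3.70 to 8.63 in adipose tissue.

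HOXA3, HOXA4 and HOXC6 were called highest in no tissue. HOXC6 had 8.01 to 27.1 normalised CPM in ovary and 7.27 to 24.4 in adipose tissue, ranges that overlap almost wholly, and 0.0924 to 0.359 in liver. For HOXA3 the medians were 22.1 in ovary, 30.7 in adipose tissue and 2.19 in liver, and for HOXA4 they were 17.6, 31.8 and 4.47 in the same order. HOXA4 was the only HOX gene above the filter of the feeding test in liver. Reads of HOXA3 with HOXA4, of HOXB3 with HOXB4, HOXB5 and HOXB6, and of HOXA10 with HOXA9 cannot be fully told apart, because these genes overlap in the RefSeq annotation of a later assembly (GRCg7b) and the handling of reads that fall on overlapping genes is not given in the sources used here.

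In ovary the HOX genes of paralog groups 3 to 6 varied together from hen to hen. All 7 of them (HOXA3, HOXA4, HOXB3, HOXB4, HOXB5, HOXB6 and HOXC6) were highest in M1724 and lowest in M6709, and the highest library was 2.90 to 4.42 times the lowest. These 2 libraries are of the same feeding group. HOXA10 and HOXC10 were instead highest in M6709. In adipose tissue 5 of the 7 were highest in F1723 and the other 2 in F1725, and 5 were lowest in F6709. The order of the hens was less alike there. F1725 was highest for HOXB6 (99.2 normalised CPM) but was at 48.4 for HOXB3, below the adipose median of 54.4. MEIS2, which encodes a TALE cofactor of HOX proteins, also peaked in M1724, at 101 normalised CPM against 28.5 to 62.4 in the other ovaries. Between tissues MEIS2 had medians of 40.9 in ovary, 57.2 in adipose tissue and 16.5 in liver and was called highest in none. The same library had the 2001 normalised CPM of DES given above and 843 of ACTA1, another muscle gene, against 40.1 to 218 in the other ovaries, and their part in these values was not tested.

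**Figure D2:**
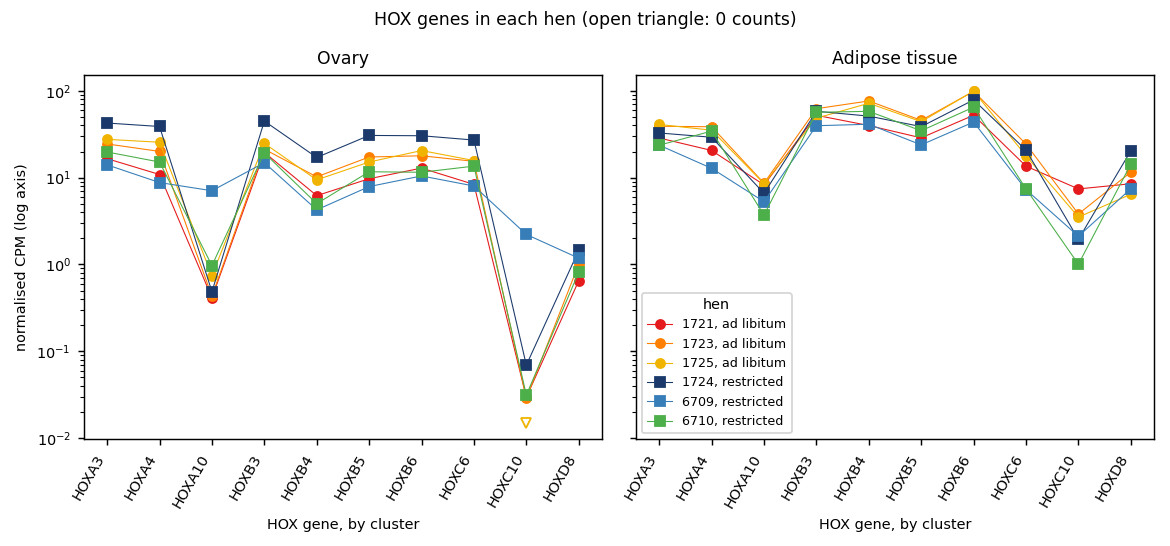
Normalised CPM (log axis) of the 10 HOX genes in ovary (left) and adipose tissue (right), with circles for hens fed ad libitum, squares for hens on restricted feeding and 1 colour and line for each hen; an open triangle marks a count of 0. In ovary the line of M1724 lies above the others for HOXA3, HOXA4, HOXB3 to HOXB6 and HOXC6, and M6709 stands alone for HOXA10 (7.06) and HOXC10 (2.22).

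Of the 11 homeobox genes outside the HOX clusters, EMX1 and PAX6 did not pass the filter. Of those tested, 6 were called highest in ovary and none in adipose tissue or liver. Over all genes these shares were 24.5%, 20.4% and 24.5%. EMX2 and LHX8 stood in the study's ovary list, so the choice already used their level there. Without a filter, and without the hen of F6709, EMX1 and PAX6 were called highest in adipose tissue, PAX6 also without the hen of F1721. EMX2, a factor of the urogenital tract and forebrain, had 32.3 to 69.1 normalised CPM in ovary (median 45.5) and 1.19 to 22.4 in adipose tissue (median 6.09), with no count in liver. The ovary was above adipose tissue in all 6 libraries, by 2.66 ± 0.51 on the log2 scale (SE, edgeR FDR 0.000566), and at least 1018-fold above the liver floor. Its paralog EMX1 did not pass the filter: it had a single count over the 6 ovaries, at most 0.347 normalised CPM in liver, and 0.0423 to 3.18 in adipose tissue. LHX4, best known from the pituitary and spinal cord, had 5.17 to 18.1 normalised CPM in ovary (median 8.62), 0 to 1.78 in adipose tissue (median 0.759) and 1 count over the 6 livers. Ovary minus adipose was 3.57 ± 0.66 (edgeR FDR 0.00027) for LHX4, and the ranges did not overlap, but LHX4, like FOXE3, passed the filter only through ovary.

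LHX8, which in mice is needed by oocytes of early follicles, had 15.9 to 73.4 normalised CPM in ovary (median 35.7), 0.972 to 2.96 in adipose tissue (median 1.47) and 13.6 to 26.8 in liver (median 17.6). The ovary exceeded liver by 0.95 ± 0.26 on the log2 scale (SE, edgeR FDR 0.00349) with overlapping ranges, and it exceeded adipose tissue by 4.44 ± 0.31 (FDR 8.77e-09). In the RefSeq annotation LHX8 overlaps the choline transporter gene SLC44A5, so its reads are uncertain in liver and in the other tissues.

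SIX2, a kidney progenitor factor, had 1.45 to 9.35 normalised CPM in ovary, 0.899 to 2.75 in adipose tissue and no count in liver. It was called highest in ovary, with an ovary minus adipose difference of 0.88 on the log2 scale (edgeR FDR 0.0723), and this call was lost with the hen as a block and without any 1 of the 3 ad libitum hens or the hen of M1724. PAX9 was also called highest in ovary, at 1.15 to 3.98 normalised CPM against 0.0749 to 1.85 in adipose tissue and 0.115 to 0.520 in liver. The Iroquois genes IRX1 and IRX2, which lie next to each other in the RefSeq annotation, had no count in liver and were called highest in neither of the other tissues by edgeR. IRX2 was called highest in ovary by DESeq2, with RLE or library size scaling, without a filter and without the hen of M1723 or of M6709. IRX1 had 0.642 to 1.94 normalised CPM in ovary and 0.502 to 3.97 in adipose tissue, and IRX2 had 0.946 to 14.1 in ovary and 0.599 to 9.59 in adipose tissue.

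**Figure D3:**
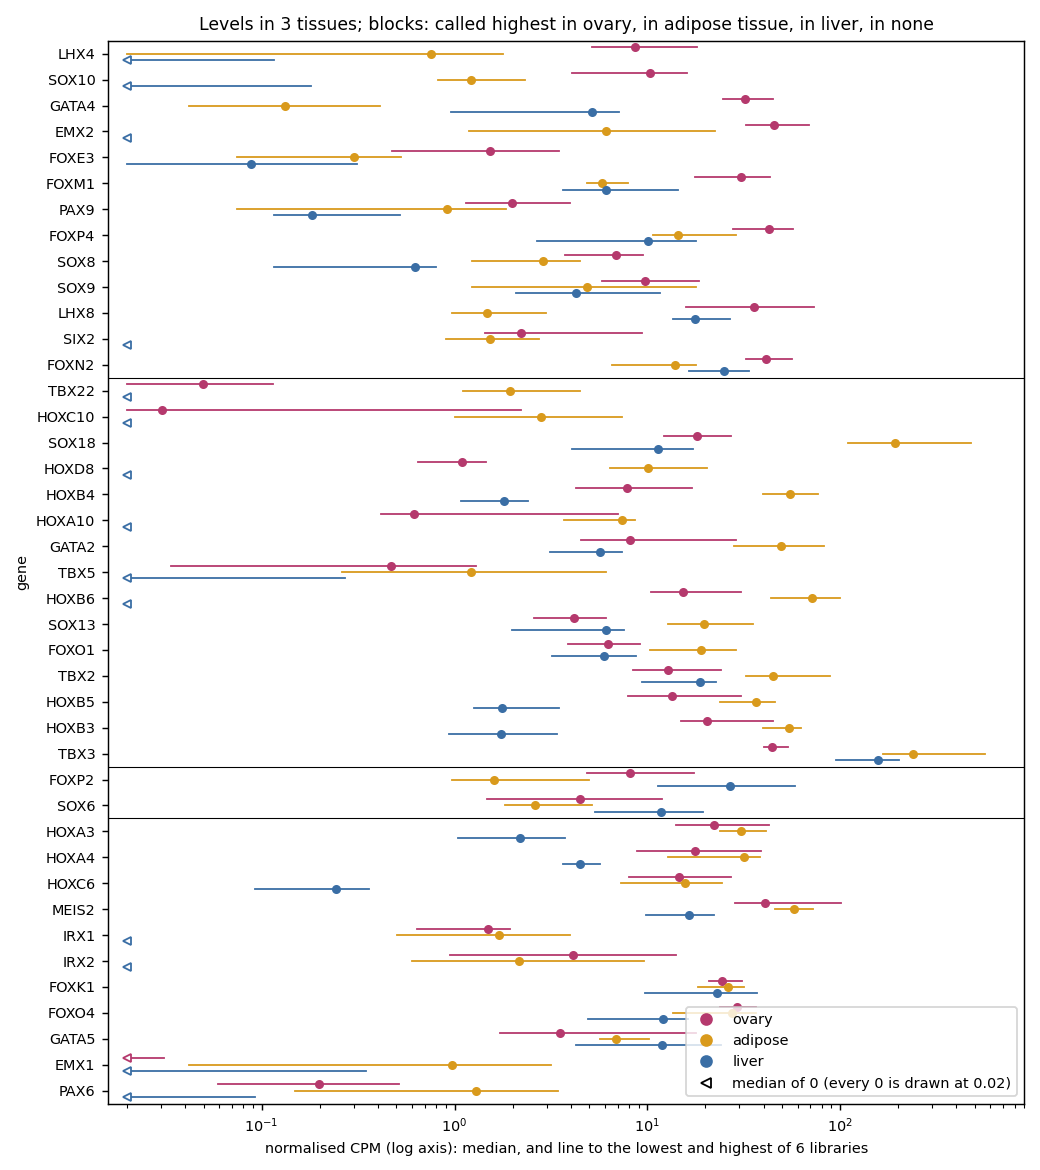
Normalised CPM (log axis) of 41 of the factors in ovary, adipose tissue and liver; points are medians, lines run from the lowest to the highest of 6 libraries, and open triangles mark a median of 0. The blocks from top to bottom hold 13 genes called highest in ovary, 15 in adipose tissue, 2 in liver, and 11 that were called highest in none or could not be tested.

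The SOX genes were spread over all 3 tissues. SOX8, SOX9 and SOX10, the group E genes of testis, cartilage and neural crest, were called highest in ovary, and SOX13 and SOX18 in adipose tissue. SOX6, a regulator of cartilage, erythroid and muscle cells, was called highest in liver. SOX10, a neural crest and Schwann cell factor, had 4.09 to 16.0 normalised CPM in ovary (median 10.3), 0.820 to 2.32 in adipose tissue (median 1.22) and 0 to 0.18 in liver. Ovary minus adipose was 2.89 ± 0.40 on the log2 scale (SE, edgeR FDR 2.07e-05), with no overlap. SOX9 overlapped between the tissues, at 5.79 to 18.5 normalised CPM in ovary (median 9.76), 1.24 to 17.9 in adipose tissue (median 4.87) and 2.08 to 11.7 in liver (median 4.25). SOX18, a factor of endothelial cells, had 12.2 to 27.1 normalised CPM in ovary (median 18.2), 110 to 479 in adipose tissue (median 192) and 4.06 to 17.3 in liver (median 11.4). Every adipose library was above every other library, by 3.70 ± 0.36 over ovary (ovary minus adipose -3.70, FDR 3.53e-07) and 4.34 ± 0.38 over liver (FDR 3.78e-08). SOX18 stood in the study's adipose list, so the choice already used its level there.

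The endothelial marker sum was also highest in adipose tissue, at 277 to 556 normalised CPM in ovary, 2123 to 4479 in adipose tissue and 326 to 937 in liver, but it did not follow SOX18 between ovary and liver, nor within liver, where G1723 had the highest sum and the lowest SOX18. In adipose tissue, F1723 and F1725 had the highest sums (3982 and 4479) and the highest SOX18 (323 and 479), and the part of the endothelial sum in the difference was not tested. SOX6 had 1.47 to 11.9 normalised CPM in ovary (median 4.45), 1.83 to 5.16 in adipose tissue (median 2.61) and 5.37 to 19.4 in liver (median 11.7). Liver lay above adipose tissue in all libraries, with adipose minus liver at -2.07 ± 0.33 (FDR 3.87e-05) and ovary minus liver at -1.49 ± 0.33 (FDR 0.000573). With library size alone SOX6 was no longer highest in liver.

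Among FOX genes, FOXE3, FOXM1, FOXN2 and FOXP4 were called highest in ovary, FOXO1 in adipose tissue and FOXP2 in liver. FOXM1, FOXN2 and FOXP4 stood in the study's ovary list, and FOXE3 passed the filter only through ovary. These ovary calls therefore follow in part from the choice or the filter. Over all genes the shares called highest were 24.5% in ovary, 20.4% in adipose tissue and 24.5% in liver. FOXP2, a repressor of the FOXP subfamily, had 4.86 to 17.4 normalised CPM in ovary (median 8.13), 0.965 to 4.98 in adipose tissue (median 1.61) and 11.4 to 58.5 in liver (median 26.9). Adipose minus liver was -3.67 ± 0.47 on the log2 scale (SE, edgeR FDR 2.98e-06) without overlap, and ovary minus liver was -1.82 ± 0.43 (FDR 0.00105) with an overlap. With library size alone the liver call was lost, since ovary and liver then differed by less than 0.1 on the log2 scale for FOXP2. The related FOXP4 was ordered differently, with medians of 42.8 in ovary, 14.4 in adipose tissue and 10.01 in liver. FOXM1, a driver of cell division, had 17.7 to 43.1 normalised CPM in ovary, above the 4.88 to 7.94 in adipose tissue and the 3.65 to 14.4 in liver in every library. It overlaps RHNO1 and TULP3 in the RefSeq annotation.

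FOXO1, a target of insulin signalling, had 3.85 to 9.12 normalised CPM in ovary, 10.3 to 28.7 in adipose tissue and 3.21 to 8.68 in liver. The adipose range lay above both others, with ovary minus adipose at -1.58 ± 0.25 on the log2 scale (SE, edgeR FDR 3.58e-05) and adipose minus liver at 1.63 ± 0.25 (FDR 2.32e-05). FOXO4, of the same subfamily, was called in none, with medians of 29.1 in ovary, 27.6 in adipose tissue and 12.1 in liver. FOXK1 had near-equal medians of 24.4, 26.2 and 22.9 in the same order. Among paired box genes, the eye and brain gene PAX6 did not pass the filter between tissues.

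The GATA genes differed from each other. GATA4, a partner of gonadal and hepatic regulators, had 24.6 to 44.7 normalised CPM in ovary (median 32.2), 0.0423 to 0.412 in adipose tissue (median 0.132) and 0.953 to 7.11 in liver (median 5.15). The 3 ranges did not overlap, with ovary minus adipose at 7.42 ± 0.52 (SE, edgeR FDR 1.19e-08) and ovary minus liver at 2.76 ± 0.40 (FDR 9.37e-06). GATA2, known from blood progenitors, endothelium and preadipocytes, had 4.55 to 28.6 normalised CPM in ovary (median 8.10), 28.2 to 82.7 in adipose tissue (median 49.0) and 3.12 to 7.36 in liver (median 5.66). It was called highest in adipose tissue (ovary minus adipose -2.34 ± 0.39, FDR 6.56e-05), and the only ovary that reached the adipose range was M1723. GATA4 stood in the study's ovary list and GATA2 in its adipose list, so the choice already used their levels there. GATA5, of endodermal and heart lineages, was called in no tissue and had medians of 3.52 in ovary, 6.85 in adipose tissue and 11.9 in liver.

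All 4 T-box genes were called highest in adipose tissue. For 3 of them this follows from the filter or the choice, since TBX22 and TBX5 passed the filter only through adipose tissue and TBX2 stood in the adipose tissue list. TBX22, a palate gene, had at most 0.115 normalised CPM in ovary, 1.11 to 4.45 in adipose tissue (median 1.93) and no count in liver. Ovary minus adipose was -5.25 ± 0.54 on the log2 scale (SE, edgeR FDR 3.65e-06), and adipose tissue was at least 49.9-fold above the liver floor. TBX3, a limb and mammary gland repressor, had 40.3 to 53.5 normalised CPM in ovary, 167 to 561 in adipose tissue and 95.2 to 202 in liver. Its ovary range was below both others, with ovary minus adipose at -2.78 ± 0.25 (FDR 1.47e-07) and adipose minus liver at 0.96 ± 0.24 (FDR 0.00187). TBX2, its paralog, had medians of 12.8 in ovary, 44.6 in adipose tissue and 18.7 in liver. TBX5, the neighbour of TBX3 and a forelimb and heart gene, had medians of 0.469 in ovary, 1.21 in adipose tissue and 0 in liver.

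The effect of feeding was compared within each tissue, as the study set out to do. No member passed an FDR of 0.1 in edgeR's quasi-likelihood test in any tissue, out of 36 tested in ovary, 37 in adipose tissue and 19 in liver. Over all genes, the share called was 0% of 12871 in ovary, 0.00839% of 11914 in adipose tissue and 0.00967% of 10339 in liver. The study, with edgeR at the same FDR threshold, reported far more genes in each tissue and examined a part of them by qRT-PCR. The low shares here are those of the quasi-likelihood test and not the study's own outcome. At an unadjusted p under 0.05, the test counted 3 members in ovary, 10 in adipose tissue and 4 in liver. Over all genes the shares at that p were 4.85%, 5.19% and 13.7%. DESeq2 called 0 members in ovary, 2 in adipose tissue (SOX9 among them) and 2 in liver (FOXN2 and FOXP2). It called 0.373%, 0.655% and 2.33% of all genes. The likelihood ratio test with trended dispersions called 0, 6 (EMX2, IRX1, IRX2, PAX9, SOX9 and TBX5) and 2 (FOXP2 and GATA5) in the same order. Its shares over all genes were 1.90%, 2.93% and 3.82%. Of its adipose calls, IRX1, IRX2, PAX9 and TBX5 passed the filter only through the restricted group, in which they were higher. The study's feeding list of each tissue is ordered by the p of its own test on these libraries, and 34 members were found through such a list (7 in ovary, 24 in adipose tissue and 8 in liver). Counts of members with a low p or with separated groups therefore follow from the choice and cannot be read against the share over all genes. With 3 hens against 3, an exact permutation test cannot go below p = 0.1, so it is stated instead whether the groups overlapped. Each standard error is the log2 difference over the root of F, and differences are ad libitum over restricted.

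**Figure D4:**
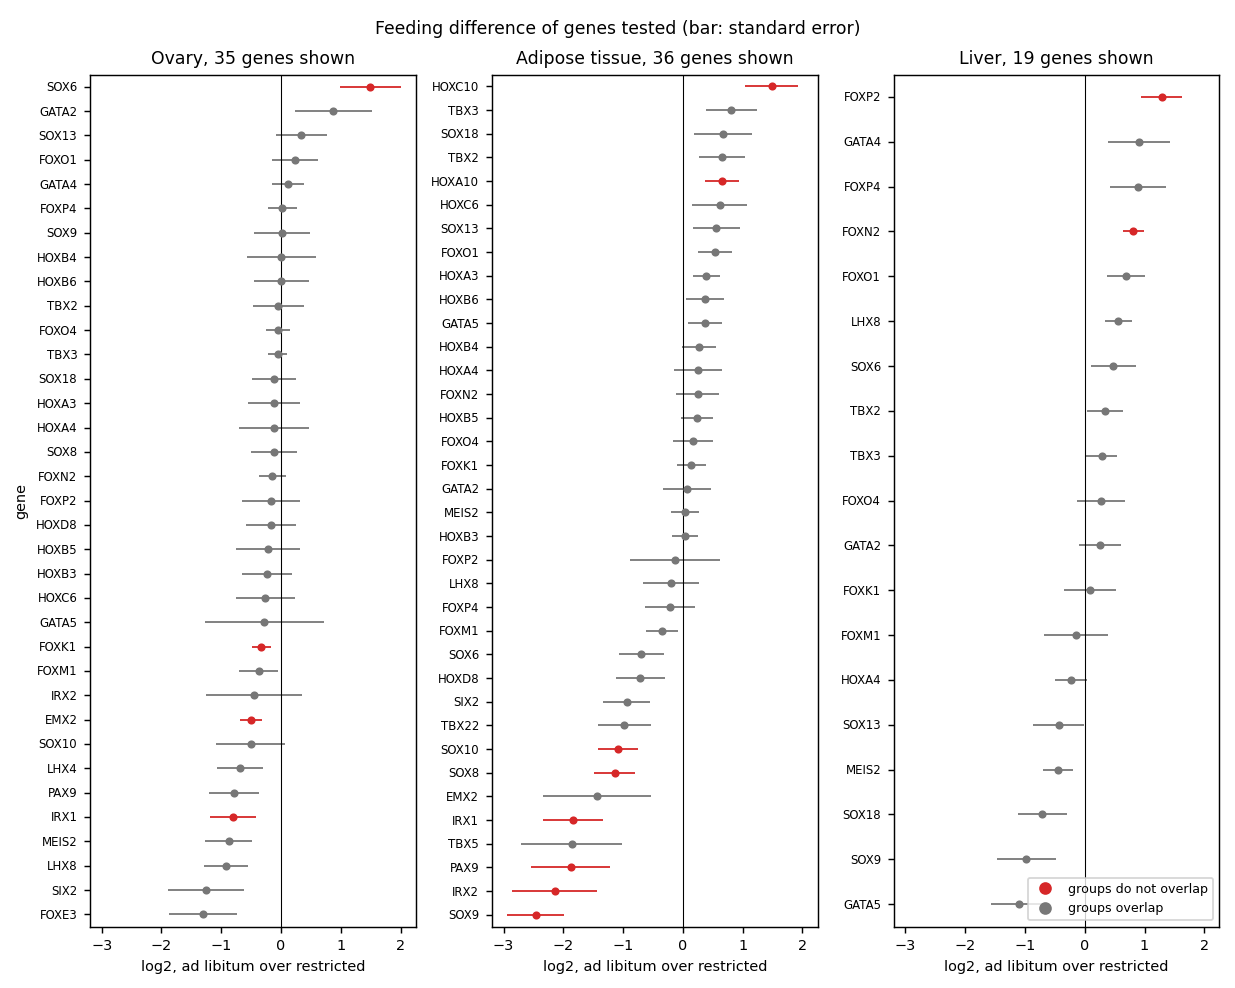
Log2 difference between ad libitum and restricted feeding, with its standard error, of members tested in ovary, adipose tissue and liver; positive values are higher in the ad libitum group and red marks genes whose feeding groups did not overlap. The lowest value is that of SOX9 in adipose tissue (-2.46) and the highest are those of SOX6 in ovary (1.495) and HOXC10 in adipose tissue (1.49).

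In adipose tissue 20 members were above 0 and 17 below, with a median of 0.04 against 0.01 over all genes. Without F6709 the balance turned, with 18 above and 23 below and a median of -0.10 against 0.03 over all genes. Of the 37 members tested, 11 were lowest in F1721, of the ad libitum group, and 12.5% of all genes were. In F6710, of the restricted group, 10 members and 31.2% of all genes were lowest. In 9 members the feeding groups did not overlap, 2 higher with ad libitum feeding (HOXA10 and HOXC10) and 7 lower, among them SOX9, IRX1, IRX2, PAX9, SOX8 and SOX10. Groups that did not overlap made up 9.12% of all genes tested in this tissue, and all 9 members were in its feeding list. SOX9 is a regulator of cartilage and of Sertoli cells that also marks adipocyte progenitors in mice. It had 1.24, 2.65 and 2.33 normalised CPM in the ad libitum group (F1721, F1723 and F1725). In the restricted group (F1724, F6709 and F6710) it had 7.08, 17.9 and 8.20. All 3 restricted hens were above all 3 ad libitum hens, with a difference of -2.46 ± 0.48 (SE, unadjusted p = 0.00124, FDR 0.890 in edgeR) and an FDR of 0.000813 in DESeq2. Without F6709, the highest of them, it was -1.92 (FDR 0.174).

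SIX2 also had a negative difference (-0.94 ± 0.39, SE) with overlapping groups, at 0.899, 1.11 and 1.55 normalised CPM with ad libitum feeding and 1.51, 2.32 and 2.75 with restricted feeding. IRX1 had 0.599, 1.30 and 0.502 normalised CPM in the ad libitum group and 2.11, 3.97 and 2.22 in the restricted group, from 11 to 94 counts per library. Its groups were apart, with a difference of -1.83 ± 0.50 (edgeR FDR 0.890). IRX1, IRX2, PAX9 and TBX5 passed the filter in adipose tissue only through the restricted group, in which they were higher, so that their sign followed from the filter and they were not tested where all 6 libraries had to exceed 1 CPM. IRX2 had 0.599, 1.93 and 0.867 normalised CPM with ad libitum feeding and 2.59, 9.59 and 2.38 with restricted feeding, a difference of -2.15 ± 0.71 (edgeR FDR 0.892). F6709 was the highest library of SOX9, IRX1 and IRX2, and without it the difference of IRX2 was -1.17 (FDR 0.375) and that of IRX1 was -1.47 (FDR 0.291).

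F6709 also had 274 normalised CPM of SPINK7 and 35.5 of AVD, genes of egg white proteins, against 6.03 to 28.3 and 3.55 to 12.3 in the other adipose libraries. SPINK7 was also at 6107 to 14732 in the livers. The part of this library's makeup in the values of SOX9, IRX1 and IRX2 was not tested beyond leaving it out. HOXC10 ran in the opposite direction, with 7.42, 3.81 and 3.51 normalised CPM in the ad libitum group and 1.95, 2.11 and 1.01 in the restricted group. The groups were apart, at 1.49 ± 0.44 (SE, edgeR FDR 0.890). HOXA10, its paralog in cluster A, had 8.24, 8.63 and 8.53 normalised CPM with ad libitum feeding and 6.59, 5.28 and 3.70 with restricted feeding, at 0.66 ± 0.28 (edgeR FDR 0.907). The other 8 HOX genes overlapped between the groups.

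**Figure D5:**
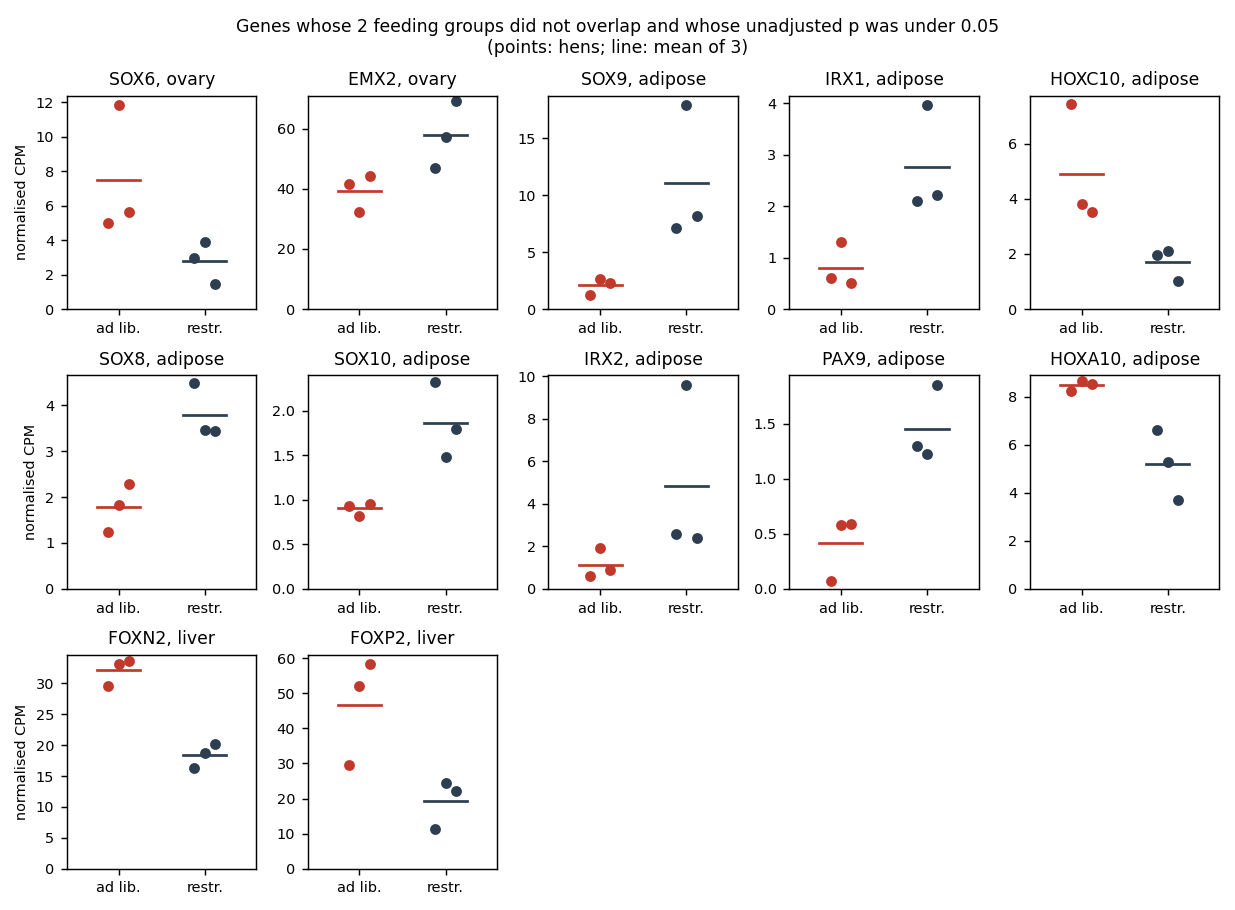
Normalised CPM in each hen (points) with the mean of 3 (lines) of 12 cases in which a member's feeding groups did not overlap and its unadjusted edgeR p was under 0.05; ad libitum hens stand on the left and restricted hens on the right. In adipose tissue SOX9 was 1.24 to 2.65 in ad libitum hens and 7.08 to 17.9 in restricted hens, and HOXA10 and HOXC10 were higher in ad libitum hens.

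SOX8, SOX10 and PAX9, the last with the limit of the filter given above, also had lower values with ad libitum feeding in adipose tissue, without overlap and with edgeR FDR values of 0.890 to 0.907. SOX10 had 0.936, 0.820 and 0.958 normalised CPM in the ad libitum group and 2.32, 1.48 and 1.80 in the restricted group, and PAX9 had 0.0749, 0.579 and 0.593 with ad libitum feeding and 1.30, 1.23 and 1.85 with restricted feeding. SOX8 had 1.24, 1.83 and 2.28 in the ad libitum group and 4.49, 3.47 and 3.44 in the restricted group. At the other end, TBX3, SOX18, TBX2 and SOX13 had positive differences of 0.56 to 0.81 with overlapping groups. In these genes F1723 and F1725 were highest and F1721, of the same ad libitum group, was among the lowest: TBX3 had 167, 471 and 561 normalised CPM in the ad libitum hens and 229, 248 and 185 in the restricted hens. The endothelial marker sum had the same pattern, at 2123, 3982 and 4479 in the ad libitum group and 2963, 2808 and 2278 in the restricted group, and its part was not tested.

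EMX1, PAX6 and LHX4 had reads in a part of the adipose libraries. EMX1 had 3, 25 and 16 counts in the ad libitum group and 53, 1 and 60 in the restricted group. PAX6 had 4, 32 and 23 counts with ad libitum feeding and 35, 7 and 65 with restricted feeding, and LHX4 had 5, 22 and 10 against 33, 0 and 28. In all 3 genes F1721 and F6709, which belong to different feeding groups, were the lowest, and F1724 and F6710 were among the highest 3. None of these 3 passed the filter for the feeding test in adipose tissue. EMX2, which did, had 6.59, 5.59 and 1.19 normalised CPM in the ad libitum group and 10.7, 1.94 and 22.4 in the restricted group, with a difference of -1.44 ± 0.90 (SE, edgeR FDR 0.907). TBX5, at similarly few reads, had 0.262, 1.495 and 0.776 in the ad libitum group and 6.11, 0.930 and 1.91 in the restricted group, an overlap, with F1724 far above the rest.

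In ovary 9 members were above 0 and 27 below, with a median of -0.16 against -0.02 over all genes. This balance rests on M1724, of the restricted group: without it 18 members were above 0 and 20 below, with a median of -0.05. Without M1723 the tilt was larger, with 5 above and 31 below and a median of -0.22. Of the 36 members tested, 16 were highest in M1724, and 18.1% of all genes were. In 4 members the feeding groups did not overlap, SOX6 higher and EMX2, FOXK1 and IRX1 lower with ad libitum feeding, and this held for 9.02% of all genes tested. SOX6 had 5.02, 11.9 and 5.64 normalised CPM in the ad libitum group and 2.98, 3.87 and 1.47 in the restricted group. The difference was 1.495 ± 0.51 (SE, unadjusted p = 0.0212, FDR 0.878 in edgeR). The highest library was M1723, which was also the ovary with the chromaffin markers and with 4863 normalised CPM of 3 haemoglobin genes against 72.3 to 634 in the others. Without it SOX6 was at 0.94.

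EMX2 had 41.7, 32.3 and 44.1 normalised CPM in the ad libitum ovaries and 47.0, 57.4 and 69.1 in the restricted ovaries. The groups were apart, at -0.51 ± 0.19 (SE, edgeR FDR 0.878). LHX8 had 37.3, 28.8 and 15.9 normalised CPM with ad libitum feeding and 34.1, 53.6 and 73.4 with restricted feeding, a difference of -0.92 ± 0.37 (edgeR FDR 0.878) with 1 restricted hen inside the ad libitum range. FOXE3, a lens factor, had 0.620, 1.55 and 0.473 normalised CPM in the ad libitum group and 1.49, 1.95 and 3.48 in the restricted group, at -1.30 ± 0.57 (edgeR FDR 0.878) and with an overlap, and it passed the filter only through the restricted group. The sum of 4 genes listed as oocyte markers was set beside LHX8. It was 432, 159 and 194 normalised CPM in the ad libitum ovaries and 172, 246 and 330 in the restricted ovaries. Its members differed. ZP3 was higher in the ad libitum ovaries, at 205, 40.6 and 98.8 against 19.7, 33.4 and 21.3. ZP4, BMP15 and DAZL were highest in M6710, as LHX8 was. ZP4 had 84.8, 48.9 and 31.3 against 67.4, 75.5 and 120. BMP15 had 51.3, 36.3 and 30.7 against 28.9, 46.7 and 70.0, and DAZL had 90.5, 33.1 and 33.2 against 55.5, 90.4 and 118. The part of oocyte content in the LHX8 values was not tested, and the doubt on SLC44A5 holds here too. HOXA10, which the study listed for this tissue, was below the filter: it had 14, 15 and 22 counts in the ad libitum group and 14, 239 and 31 in the restricted group, so the high value is that of M6709 alone.

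GATA2 in ovary followed M1723 alone, with 4.55, 28.6 and 8.78 normalised CPM in the ad libitum group and 9.42, 7.42 and 7.21 in the restricted group. The difference was 0.88 ± 0.64 (SE, edgeR FDR 0.878), and -0.26 without M1723. The adrenal cortex markers CYP21A1 and MC2R also summed to 90.5 normalised CPM in that ovary, against 1.66 to 3.57 in the others. GATA5 was high in the ovary libraries M1723 and M1724, which belong to different feeding groups, at 2.78, 15.2 and 1.72 normalised CPM with ad libitum feeding and 17.8, 2.87 and 4.17 with restricted feeding. MEIS2 and SIX2 were highest in M1724, of the restricted group, and without it their differences of -0.87 and -1.26 became -0.40 and -0.27.

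In liver 12 members were above 0 and 7 below, with a median of 0.27 against -0.00440 over all genes, and the median was 0.03 without G1724, of the restricted group. That library was the lowest for 11 of the 19 members tested and for 29.0% of all genes. FOXN2 and FOXP2 did not overlap between the groups and were higher in the ad libitum group. Separation held for 21.3% of all genes tested in liver, and both genes were in the liver feeding list. FOXN2, a forkhead gene of little known function, had 29.6, 33.2 and 33.7 normalised CPM in the ad libitum group and 16.4, 18.7 and 20.1 in the restricted group. The difference was 0.81 ± 0.17 (SE, unadjusted p = 0.00143, FDR 0.324 in edgeR), and DESeq2 gave an FDR of 0.0199. FOXP2 had 29.6, 52.1 and 58.5 normalised CPM with ad libitum feeding and 11.4, 24.3 and 22.2 with restricted feeding, at 1.29 ± 0.34 (edgeR FDR 0.324) and with an FDR of 0.0388 in DESeq2. Without G1724 the difference of FOXP2 was 1.02 and that of FOXN2 was 0.75.

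GATA5 had 4.25, 13.4 and 7.84 normalised CPM in the ad libitum livers and 24.01, 20.8 and 10.4 in the restricted livers. The groups overlapped, with a difference of -1.11 ± 0.45 (SE, edgeR FDR 0.356), and GATA4 had the opposite sign (0.90 ± 0.52, FDR 0.442) and passed the filter only through the ad libitum group. LHX8 had 26.8, 17.5 and 23.4 normalised CPM with ad libitum feeding and 14.9, 13.6 and 17.6 with restricted feeding, at 0.56 ± 0.22 (edgeR FDR 0.345), which overlapped and which shares the doubt on SLC44A5. SOX9 in liver had 4.99, 2.08 and 3.34 normalised CPM in the ad libitum group and 5.55, 3.502 and 11.7 in the restricted group (-0.98 ± 0.50, edgeR FDR 0.404), with overlapping groups, and passed the filter only through the restricted group.

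Whether feeding differences were unlike between tissues was tested as an interaction over all 18 libraries. No member passed an FDR of 0.1 in edgeR in the 3 comparisons (ovary with adipose tissue, liver with adipose tissue and liver with ovary), and 0% of the 13426 genes did in each of them. At an unadjusted p under 0.05, edgeR counted 5, 0 and 2 of the 40 members tested, and 5.45%, 5.41% and 5.33% of all genes. DESeq2 counted 6, 1 and 3 members at that p. It called no member, and 0.506%, 0.477% and 0.0596% of all genes. Among the 40 members, 9 had no count in any liver, so edgeR gave no usable test of them in the comparisons with liver. Members were also chosen in part by the p of the study's feeding test. Their counts at a low p therefore cannot be read against the shares over all genes. The effects given beside the differences below are from the separate fits of 6 libraries, so they do not add up exactly. SOX6 had an ovary effect above its adipose effect by 2.11, with 1.495 in ovary and -0.70 in adipose tissue (FDR 0.646 in edgeR). SOX9 was at 0.02 in ovary and -2.46 in adipose tissue, a difference of 2.40 (FDR 0.646). For LHX8 the liver effect exceeded the ovary effect by 1.54, with 0.56 in liver and -0.92 in ovary (FDR 0.900), and for FOXN2 by 1.01, with 0.81 in liver and -0.15 in ovary (FDR 0.900). The LHX8 effects share the doubt on SLC44A5.

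Cofactors that act with these families were looked at beside them. Of 23 listed partners, 11 had a symbol in the lists. PKNOX1, ZFPM1, LMO4, EYA1 and EYA3 were called highest in ovary, LDB2, DACH2 and TLE3 in adipose tissue and TLE1 in liver, and ZFPM2 and TLE4 in none. The lists hold genes by their level in a tissue or by the p of the study's feeding test. These calls can therefore follow in part from the choice. Over all genes the shares were 24.5% in ovary, 20.4% in adipose tissue and 24.5% in liver. EYA1, a transcriptional coactivator, had means of 10.7 normalised CPM in ovary, 0.797 in adipose tissue and 0.229 in liver. None of the partners tested for feeding was called or had an unadjusted p under 0.05 in edgeR (11 tested in ovary, 10 in adipose tissue and 9 in liver), and the smallest p was 0.0532, for DACH2, a cofactor of the same network, in ovary.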

How the data were processed

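The authors deposited counts, whole numbers of reads for each Ensembl gene in the 18 libraries, without normalization. By the methods of the study and the submitters' processing notes, reads were mapped to Gallus_gallus-5.0 with TopHat2 2.1.1 and Bowtie2 2.0.6 and counted in R with GenomicFeatures and GenomicAlignments, and whether strand was used is not given in the sources used here. The symbols came from the study's gene lists, of which the feeding list was held only in part. The members and the gene lists were chosen with earlier results of these data known.

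Genes were tested where all libraries of a group exceeded 1 CPM, with edgeR 4.0.16 in R 4.3.3 (TMM, quasi-likelihood test, Benjamini-Hochberg FDR under 0.1). Feeding was fitted in the 6 libraries of a tissue, and tissue and interaction in all 18. Alternatives were DESeq2 1.42.0, the likelihood ratio test, other scalings and filters, the hen as a block, and leaving out each hen. Named for feeding were the 4 members with the smallest p in each tissue and those the study listed at its threshold, and named for tissue the 5 called highest with the largest smaller difference, with relatives beside them. Other members were named after their values were seen. The labels give the same number to the same hen in each tissue, so the numbers pair the tissues but not the feeding groups. Deviations from the group means of same-numbered libraries correlated at -0.158 to 0.253 across genes. The fits were tested on simulated data for the 3 feeding comparisons. Of genes changed 4-fold, 88.3% (ovary, 12708 genes), 83.9% (adipose tissue, 11717) and 95.5% (liver, 10184) were recovered. Of the calls, 12.1%, 13.0% and 12.0% were false, above the 10% aimed at. Simulated counts were drawn independently for each gene and library. They hold no shift in the makeup of single libraries, such as M1723, M1724, F6709 or G1724. The recovered shares therefore do not give the power in the real libraries. Hens are the replicates, floors of 3 counts cover counting error only, and the wider gene families were not analysed here because no table pairs their symbols with the identifiers of the files. Figures were made with matplotlib 3.10.9. Values of 2 members are not reported here, although the counts of members include them. The study's lists served to choose the members and to name those listed at its threshold. Beyond this, their columns of fold changes and p-values were not used.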

Additional observations from a re-analysis of the deposited data

Results flagged for a closer look

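HOXC10 was singled out because its feeding groups did not overlap in ovary or in adipose tissue and ran in opposite directions. The ovary effect minus the adipose effect was -6.41 on the log2 scale (SE 1.78, unadjusted p = 0.00363, FDR 0.646 in edgeR), so the difference did not pass the threshold. In ovary the counts were 1, 1 and 0 in the ad libitum group and 2, 75 and 1 in the restricted group, so the separation there rests on M6709 and on single reads in the other hens. Without this hen the difference was -2.80.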

How the results depend on the processing

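The feeding counts of 0 members stayed at 0 in all 3 tissues with either other scaling (RLE or library size alone), with either other filter, in a fit over all 18 libraries, and with each hen left out (0 to 0). DESeq2 called 2 members in adipose tissue and 2 in liver, and the likelihood ratio test with trended dispersions called 6 and 2. Over all genes DESeq2 called 48 in ovary, 78 in adipose tissue and 241 in liver, and the likelihood ratio test 245, 349 and 395, so the call of a member depends on the test. With library size alone no member was called highest in liver (0), where FOXP2 was at -0.0308 and SOX6 at -0.38 on the log2 scale for the smaller of liver minus ovary and liver minus adipose, so that another tissue was above liver. With a hen left out 13 to 15 members were called highest in ovary, 15 to 18 in adipose tissue and 2 in liver. With the hen as a block (replicate block, from the pairing of tissues within a hen) the counts were 13, 16 and 2, SIX2 was lost, HOXA4 was gained, and no interaction was called (0). IRX2 was gained in ovary under 6 settings. Which members had separated groups depended on the scaling. With library size alone SIX2 in adipose tissue and MEIS2 in liver were separated as well. FOXK1 in ovary was then no longer separated, at 40.1 CPM in M1723 (ad libitum) and 39.8 in M1724 (restricted). Depth limits what can be said of EMX1, PAX6, HOXC10, TBX22 and TBX5, which had few reads in most libraries.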
